A study of Homo sapiens with 6 samples.

Results

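The genes examined here encode 8 transcription factors linked to naïve pluripotency, the state of the preimplantation epiblast: KLF4, KLF5, KLF17, TFCP2L1, ESRRB, TBX3, PRDM14 and SALL4. They were chosen by name from 19819 protein-coding genes, and all 8 were found in the annotation. CpG methylation around them was read from whole-genome bisulfite sequencing of H9, an established line of human embryonic stem cells. Conventional H9 cells (3 libraries) were grown on mouse embryonic fibroblast feeders with 10 ng/ml bFGF and 20% KSR, a serum replacement. Reset cells (3 libraries) were H9 cells transfected with NANOG and KLF2 transgenes that doxycycline switches on. They were moved through medium with doxycycline and then kept without it on feeders in t2iL+Gö. This medium holds LIF, 1 μM of the GSK3 inhibitor CHIR99021, 1 μM of the MEK inhibitor PD0325901 and 5 μM of the protein kinase C inhibitor Gö6983. Both groups were kept at 5% oxygen. The libraries of a group were described as biological replicates. Whether the Reset ones came from separate resettings is not given in the sources used here, so p-values speak only for these libraries. Transgene, medium and culture history cannot be told apart in this design. The data hold no expression values, so neither the activity of the 8 genes nor the identity of the cells was checked by markers.

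DNA methylation in mammals sits mainly on the cytosine of CpG dinucleotides and covers most of the genome, while CpG-rich promoters are usually free of it. Distal enhancers tend to lose methylation where factors occupy them. The 8 factors belong to several protein families. KLF4, KLF5 and KLF17 are Krüppel-like zinc finger proteins that bind GC-rich DNA. TFCP2L1 is a Grainyhead-family factor, and ESRRB is an orphan nuclear receptor. TBX3 is a T-box factor that also acts in limb, heart and mammary development. PRDM14 acts in germ cell formation, and SALL4 is a zinc finger protein of early embryos and germ cells.

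The stretches on which the account turns are shown first, each of 200 bases from GRCh37, written 5′ to 3′ along the strand of the gene, with every CpG in capitals. The first 5 lie in stretches that were methylated in Conventional and nearly free of methylation in Reset. They are at chr13:73629938-73630137 (plus strand), in an intron of a longer KLF5 transcript; chr13:73646764-73646963 (plus), in an intron of KLF5; chr9:110248053-110248252 (minus), over an exon of KLF4; chr2:122040367-122040566 (minus), in an intron of TFCP2L1; and chr14:76905744-76905943 (plus), in an exon of ESRRB. The next one is a stretch upstream of TBX3 that gained methylation, at chr12:115138263-115138462 (minus), outside the gene and within the lncRNA gene TBX3-AS1. The last is the methylated promoter of KLF17, just before its start, at chr1:44584273-44584472 (plus).
KLF5, 3 to 4 kb upstream: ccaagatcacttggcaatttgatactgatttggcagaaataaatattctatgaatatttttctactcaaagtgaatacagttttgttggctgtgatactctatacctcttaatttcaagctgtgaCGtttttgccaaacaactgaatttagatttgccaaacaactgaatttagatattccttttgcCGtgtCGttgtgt
KLF5, intron: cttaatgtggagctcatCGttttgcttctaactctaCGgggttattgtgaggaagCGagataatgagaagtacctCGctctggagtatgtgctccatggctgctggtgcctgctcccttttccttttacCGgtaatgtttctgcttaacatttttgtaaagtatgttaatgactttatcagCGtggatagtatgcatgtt
KLF4, zinc finger exon: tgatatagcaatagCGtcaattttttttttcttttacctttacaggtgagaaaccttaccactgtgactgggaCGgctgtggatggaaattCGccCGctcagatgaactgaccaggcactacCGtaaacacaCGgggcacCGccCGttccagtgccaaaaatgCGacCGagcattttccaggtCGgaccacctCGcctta
TFCP2L1, intron: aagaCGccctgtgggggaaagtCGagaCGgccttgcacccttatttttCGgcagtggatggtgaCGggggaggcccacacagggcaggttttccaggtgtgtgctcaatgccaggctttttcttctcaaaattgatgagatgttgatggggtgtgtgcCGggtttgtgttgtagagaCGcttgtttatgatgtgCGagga
ESRRB, exon: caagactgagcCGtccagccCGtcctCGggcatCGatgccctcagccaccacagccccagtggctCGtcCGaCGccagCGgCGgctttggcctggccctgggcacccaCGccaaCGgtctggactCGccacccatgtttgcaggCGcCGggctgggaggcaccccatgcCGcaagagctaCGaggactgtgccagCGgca
TBX3, far upstream: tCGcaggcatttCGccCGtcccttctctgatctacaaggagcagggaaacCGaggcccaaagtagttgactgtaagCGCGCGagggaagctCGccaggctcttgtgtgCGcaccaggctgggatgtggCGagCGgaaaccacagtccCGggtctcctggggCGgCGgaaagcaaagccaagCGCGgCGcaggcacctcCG
KLF17, promoter: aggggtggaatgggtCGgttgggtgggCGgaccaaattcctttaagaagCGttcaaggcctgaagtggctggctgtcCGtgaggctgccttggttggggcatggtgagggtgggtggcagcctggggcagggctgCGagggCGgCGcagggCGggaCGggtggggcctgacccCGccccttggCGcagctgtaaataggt

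These stretches differed CpG by CpG. In the KLF4 stretch, which holds 12 CpGs, the Conventional libraries were 97.8%, 91.7% and 94.4% methylated and the Reset libraries had no methylated call among 41, 58 and 21 calls. The KLF5 stretch upstream holds 3 CpGs and gave 72.7%, 90.9% and 93.8% in Conventional and 0% in each Reset library, from 5, 24 and 8 calls. The intronic KLF5 stretch, with 6 CpGs, gave 86.1%, 83.3% and 82.1% in Conventional and 7.69%, 0% and 0% in Reset. In the TFCP2L1 stretch 8 CpGs gave 86.4%, 86.4% and 100% in Conventional and 4.76%, 2.70% and 3.23% in Reset. The ESRRB stretch was the densest of the 5, with 17 CpGs, and ran from 89.3% to 100% in Conventional and from 0% to 16.1% in Reset. Single CpGs in the ESRRB stretch reached 50% in Reset, where calls were few, whereas those in the KLF4 stretch all stood at 0%. The TBX3 stretch ran the other way. Its 18 CpGs were 4.17%, 4.35% and 6.38% methylated in Conventional and 40.2%, 49.1% and 32.8% in Reset. Its Conventional levels rest on 24, 46 and 47 calls and its Reset levels on 127, 55 and 64 calls. The part of this difference in coverage in the result was not tested.

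**Figure D1:**
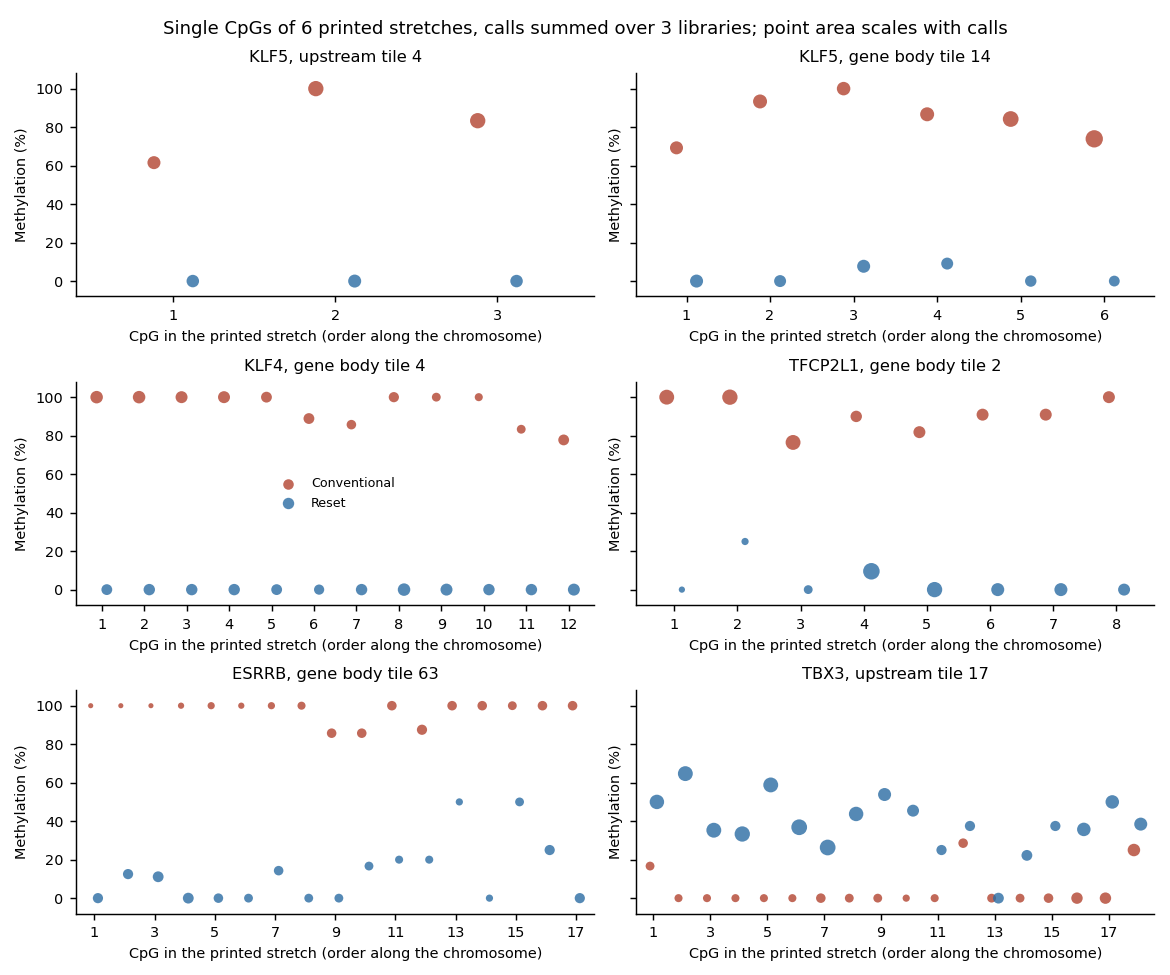
Methylation (%) of each CpG in 6 of the printed stretches, with calls summed over the 3 libraries of a group, Conventional in red and Reset in blue; the area of a point scales with its number of calls. The x axis numbers the CpGs in their order along the chromosome. All 12 CpGs of the KLF4 stretch lie at 0% in Reset, and in the TBX3 stretch the Reset points lie above most of the Conventional points.

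The libraries held between 70186287 and 97822789 calls at CpGs of chromosomes 1 to 22 and X, which is 2.51 to 3.49 calls per CpG. Single CpGs were thus thinly covered, and levels were taken over promoters, 1-kb tiles and gene bodies with at least 10 calls in every library. A level is the percentage of methylated calls, and intervals of counting error were not used because the error given is the spread between libraries. Relative to the mean of each library, coverage around the 8 genes was higher in Reset than in Conventional by a factor of 1.03 (KLF17) to 1.34 (KLF4). The part of this shift in the levels was not tested. Methylation fell across the genome in Reset, from a median of 90.6% to 33.3% over all upstream tiles and from 92.3% to 34.2% over all gene body tiles, so each fall below is set beside these values.

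Promoters were taken from 1000 bp before to 500 bp after the start of the canonical transcript. 6 of the 8 were unmethylated, meaning a mean under 20% in both groups, against 56% of all promoters tested. 4 of the 8 were lower in Reset by the quasi-binomial test, in which 67.4% of 19300 promoters were lower and 3.98% higher, and no member was higher. KLF17 was the one gene of the 8 with a methylated promoter. Its 48 CpGs gave 93.5%, 98.1% and 97.2% in Conventional and 34.4%, 26.2% and 25.0% in Reset. All Reset libraries lay below all Conventional libraries, and the fall of 67.7 points passed the test (adjusted p = 1.88e-08, quasi-binomial test with limma's squeezed dispersion). The TFCP2L1 promoter was partly methylated in Conventional, at 24.4%, 22.2% and 21.6%, and stood at 5.45%, 3.94% and 1.85% in Reset (adjusted p = 2.74e-06, same test). From 500 bp before to 500 bp after the start it fell by 6.59 points, in place of 19.0 (adjusted p = 0.00153, same test).

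The KLF5 promoter was at 6.77%, 20.5% and 11.3% in Conventional and at 0%, 0.248% and 0.844% in Reset (adjusted p = 6.24e-05, quasi-binomial test). This fall sat in the outer part of the promoter. From 500 bp before to 500 bp after the start the difference was 0.334 points in the other direction and did not pass the test (adjusted p = 0.637, quasi-binomial test), whereas the whole 1 kb before the start went from 20.5% ± 5.68 to 0.207% ± 0.359 (SD, n = 3). The SALL4 promoter went from 4.08%, 6.16% and 3.95% to 1.32%, 1.91% and 1.81%, with an adjusted p of 0.0423. That call was lost when any one of 5 of the 6 libraries was left out and with the narrower promoter. ESRRB stood at 14.6%, 14% and 12.8% in Conventional and 10.6%, 8.64% and 8.11% in Reset. Its libraries did not overlap, but the difference of 4.65 points did not pass the test (adjusted p = 0.0992). From 500 bp before to 500 bp after the start Reset was 2.26 points higher, which did not pass either (adjusted p = 0.342, quasi-binomial test). Fisher's exact test on pooled calls, which leaves out the spread between libraries, did call it lower (adjusted p = 0.0481) and brought the number of lower promoters to 5. KLF4, TBX3 and PRDM14 promoters lay at 1.42% or less in every library of both groups and did not pass the test. Calls per library at the 8 promoters ran from 88 to 404.

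Promoters of 12 other pluripotency factors were read the same way. Of these 7 were under 20% in both groups, 6 were lower and 1 was higher, against 56%, 67.4% and 3.98% of all promoters tested. The largest fall was at DPPA3, a maternal factor that protects methylation in the zygote, from 79.9% ± 10.1 to 4.41% ± 4.02 (SD, n = 3). NR5A2, a nuclear receptor, fell from 89.0% to 37.2%, ZFP42, a zinc finger marker of pluripotency, from 32.3% to 2.63%, and POU5F1 from 14.8% to 2.68%. The other two that fell are on the X chromosome: TFE3, a factor whose exclusion from the nucleus goes with exit from the naïve state, from 35.3% to 0.953%, and NR0B1, a nuclear receptor that represses transcription, from 42.4% to 8.24%. The promoter that was higher was that of the homeobox gene GBX2, at 1.14%, 1.35% and 0.993% in Conventional and 2.94%, 3.4% and 4.29% in Reset (adjusted p = 0.0123, quasi-binomial test). NANOG and KLF2, whose transgenes the Reset cells carry, did not pass it (adjusted p = 0.323 and 0.602). Reads from the transgenes and from the native genes were not told apart there.

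**Figure D2:**
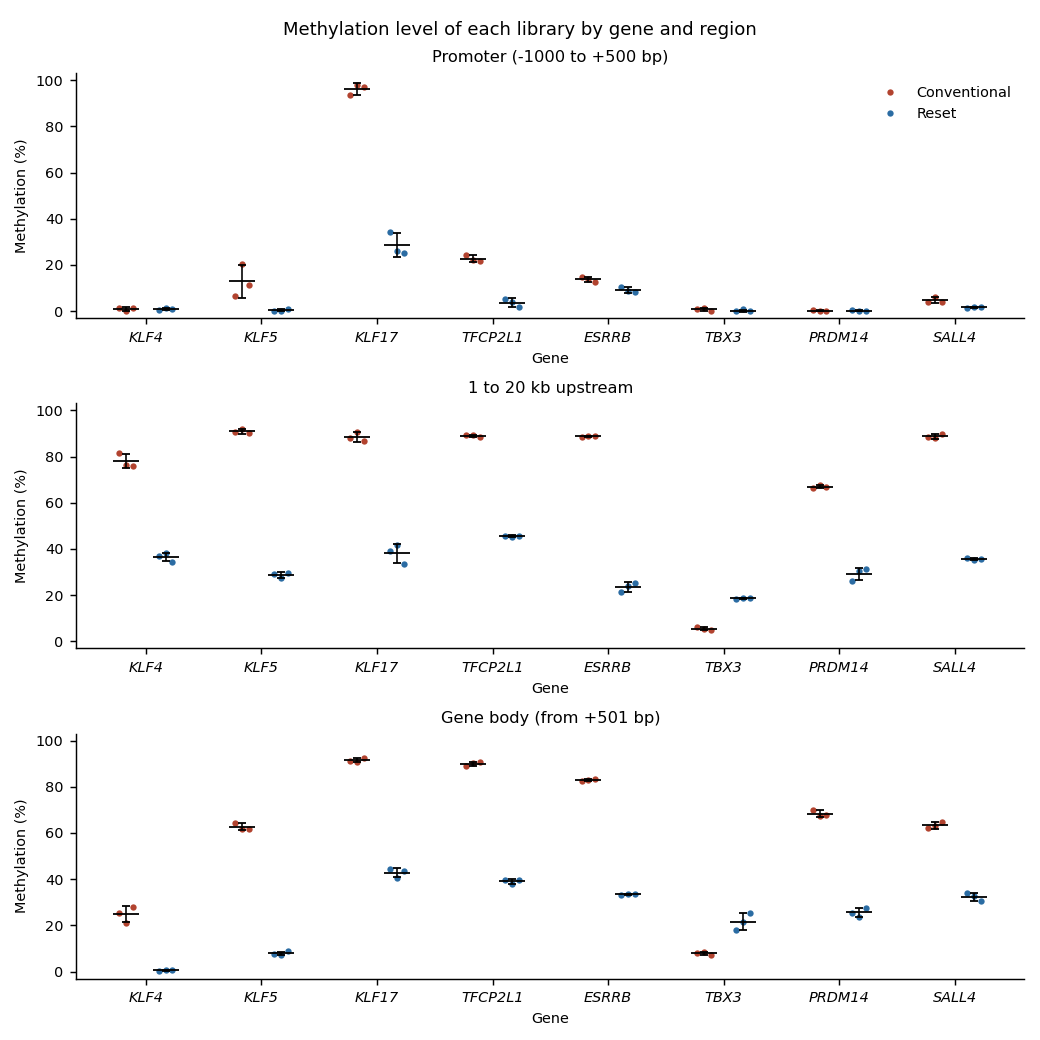
Methylation level (%) of each library at the promoter, from 1 to 20 kb upstream and over the gene body of the 8 genes. Points are libraries (Conventional red, Reset blue), and black marks are the mean with its SD (n = 3). At TBX3 the Reset libraries lie above the Conventional ones upstream and in the gene body, and at the other 7 genes they lie below in both. Every Reset library was below in 97.7% of all gene bodies, and this share was not counted for the upstream stretch.

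The 20 kb upstream of each start was cut into 1-kb tiles, and 152 of 160 tiles had enough calls. In Reset 127 tiles were lower and 13 were higher, which is 83.6% and 8.55% of those tested, against 95.3% and 1.06% of 334366 upstream tiles of all genes. Of the 13 tiles that were higher, 12 belonged to TBX3 and 1 to PRDM14. Without TBX3, 126 of 132 tiles were lower and 1 was higher. Over the whole stretch from 1 to 20 kb upstream the level fell at 7 genes. The share of all genes that fell over this stretch was not counted. Since 95.3% of single upstream tiles of all genes were lower, the number 7 is not read as a trait of these genes. TFCP2L1 kept the largest share of its level, going from 89.2%, 89.3% and 88.6% to 45.8%, 45.2% and 45.7%. ESRRB kept the least, going from 88.5%, 89.1% and 88.7% to 21.4%, 23.9% and 25.3%. In shares of the Conventional level these are 51.2% and 26.5%, which put TFCP2L1 at percentile 95.6 and ESRRB at percentile 13.2 of 19113 genes with at least 50% methylation there in Conventional. KLF5 kept 31.6%, SALL4 40.1%, KLF17 43.2%, PRDM14 43.8% and KLF4 46.8%. The stretches differ in kind: all 19 tested ESRRB tiles overlap longer ESRRB transcripts, whereas the tested TFCP2L1 tiles lie outside the gene.

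Tiles that lost nearly all methylation were then sought. A tile was called erased where it was lower by the test, its mean was at least 70% in Conventional and at most 10% in Reset, and all Reset libraries were below all Conventional libraries. There were 5 such upstream tiles (3.29% of those tested, against 3.83% of all upstream tiles). All 5 lay at genes with unmethylated promoters, where they made up 4.27% of 117 tiles. For all genes of that kind the share was 3.47%. These shares are close to the background, and 33.0% of all genes had at least 1 erased upstream tile.

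KLF5 held 3 of the 5, side by side from 1 to 4 kb before its start, and 7.5% of all genes had at least as many. All 3 lie inside a longer KLF5 transcript that begins further upstream. The outermost, at chr13:73629143-73630142 with 7 CpGs, overlaps an exon of that transcript. It was at 80.0%, 88.5% and 94.6% in Conventional and at 0%, 2.13% and 0% in Reset. Of 88483 upstream tiles with a like number of CpGs and at least 70% in Conventional, 0.0689% were as low in Reset. The tile was singled out by that same Reset level, among 115 upstream tiles of the 8 genes at 70% or more in Conventional. The share is therefore a description, with no test. The other KLF5 tiles were less rare by this measure, at 0.674% for the middle and 4.11% for the innermost. The middle tile, at chr13:73630143-73631142, went from 75.0%, 90.4% and 80.9% to 2.13%, 1.67% and 7.69%, and the innermost, at chr13:73631143-73632142, from 95.7%, 100% and 100% to 6.90%, 5.56% and 3.85%. The innermost holds 5 CpGs and had 18 calls in Reset replicate 2, so 2 of the 3 KLF5 tiles reached 20 calls in every library. The tile beyond these 3, further upstream, holds 2 starts of other KLF5 transcripts. It stood at 53.8% in Conventional, under the limit of 70%, and at 1.15% in Reset.

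ESRRB held the other pair, both in introns of longer ESRRB transcripts. Between them, the tile from 4 to 5 kb upstream holds 2 starts of other ESRRB transcripts and went from 92.6% to 17.6%. The tile from 1 to 2 kb upstream, at chr14:76840480-76841479, went from 81.8%, 82.4% and 64.7% to 4.35%, 9.09% and 8.70%. The one from 19 to 20 kb upstream, at chr14:76822480-76823479, went from 82.6%, 86.7% and 76.0% to 16.7%, 0% and 7.69%, from 11 to 30 calls per library. Of like tiles 2.41% and 2.96% were as low in Reset. Neither of the pair reached 20 calls in every library. Just outside the limit lay a TFCP2L1 tile from 2 to 3 kb upstream, at 88.7% in Conventional and 10.7% in Reset, and just inside it the far ESRRB tile, at 8.12% in Reset. A SALL4 tile from 9 to 10 kb upstream and the TFCP2L1 tile next to the start were already near 40% in Conventional (40.6% and 41.5%) and stood at 5.21% and 7.92% in Reset. KLF4, KLF17, TBX3, PRDM14 and SALL4 had no erased upstream tile by this definition.

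**Figure D3:**
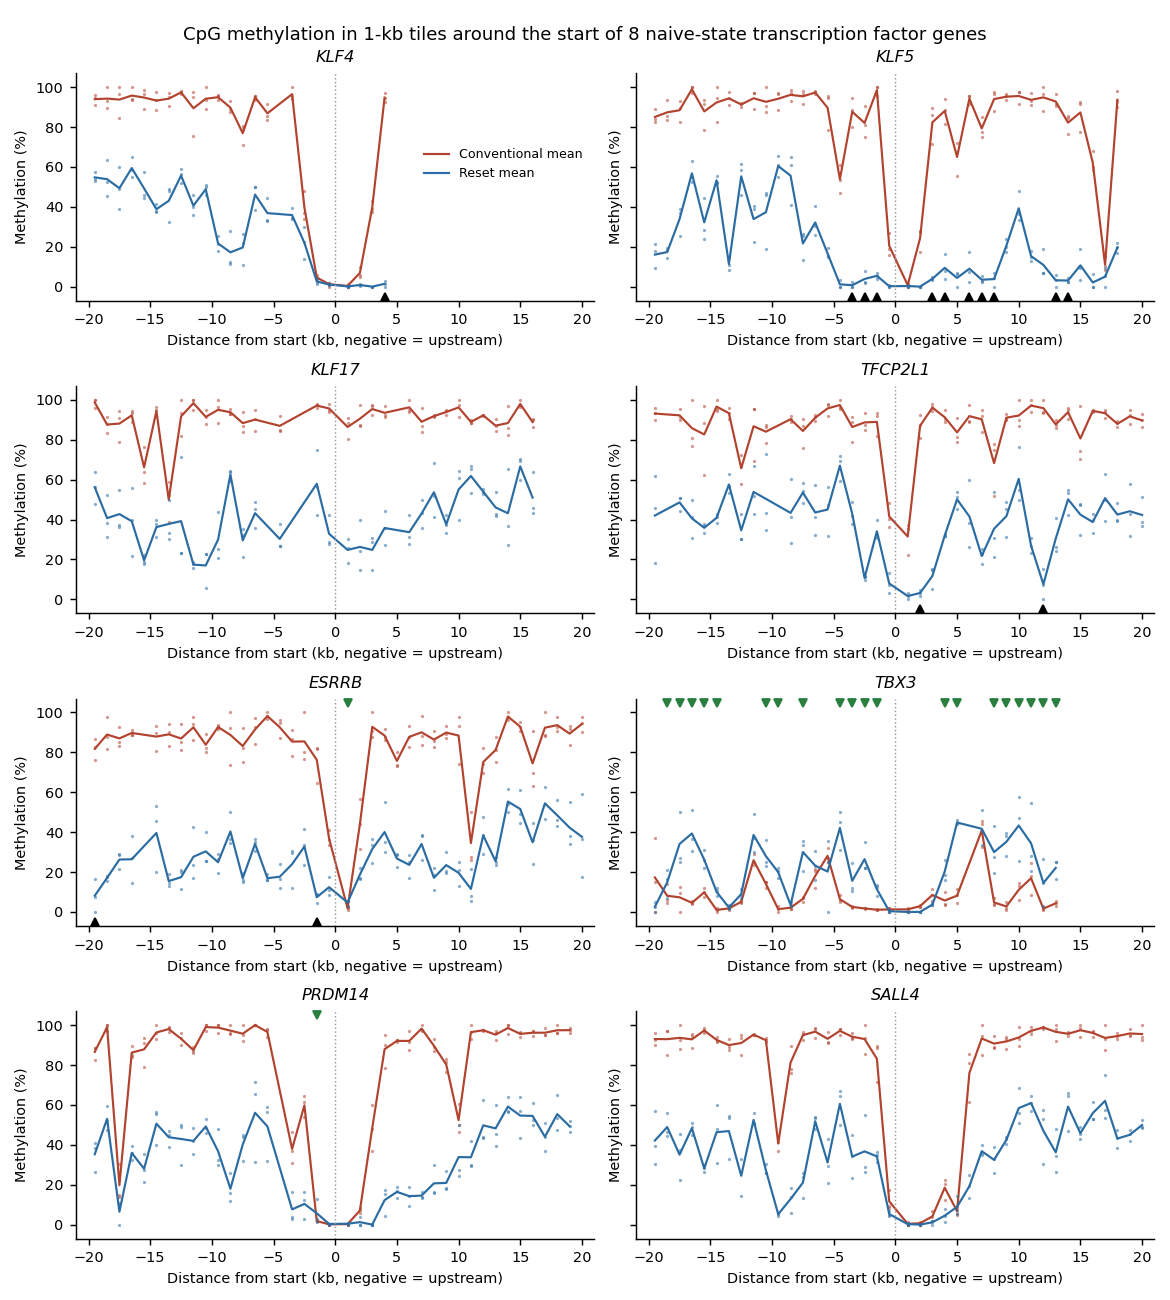
Methylation (%) in 1-kb tiles against distance from the start of each gene (kb, negative values upstream), up to 20 kb on each side or to the end of the gene. Lines are group means (Conventional red, Reset blue), small points single libraries, black triangles at the bottom mark erased tiles and green triangles at the top tiles that were higher in Reset; the erased tiles of TFCP2L1 and ESRRB beyond 20 kb into the gene are not shown. KLF5 has erased tiles on both sides of its start, and TBX3 has 20 tiles that were higher.

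Gene bodies, taken from just past 500 bp after the start, fell at 7 genes and rose at 1, against 97.8% lower and 1.15% higher of 19153 gene bodies. KLF4 had a low gene body in Conventional, at 25.5%, 21.1% and 28.0%, and nearly none of it remained in Reset, at 0.246%, 0.727% and 0.556%. The size of this fall depended on how CpGs were weighted: it was 24.3 points over pooled calls and 15.8 points over the mean of its CpGs. KLF5 went from 64.4%, 61.9% and 61.9% to 7.56%, 7.28% and 8.73%. It thus kept 12.5% of its Conventional level, which was percentile 1.67 of 18070 genes with at least 50% in Conventional. PRDM14 went from 70.2%, 67.1% and 67.7% to 25.5%, 23.7% and 27.6%, and ESRRB from 82.4%, 82.7% and 83.5% to 33.1%, 33.6% and 33.6%. TFCP2L1, KLF17 and SALL4 kept more. TFCP2L1 ran from 88.9% to 90.7% in Conventional and from 37.9% to 39.8% in Reset, KLF17 from 90.8% to 92.7% and from 40.5% to 44.2%, and SALL4 from 62.0% to 64.9% and from 30.4% to 34.1%. SALL4 kept 51.0% of its level, percentile 94.2 of the same genes. No library of one group overlapped the other at any of the 8 gene bodies (every Reset library was below every Conventional library in 97.7% of all gene bodies and above in 1.16%). The adjusted p-values of the quasi-binomial test ran from 4.11e-27 (ESRRB) to 9.51e-10 (TBX3). The exact permutation test of these levels gave its smallest two-sided p for 3 libraries against 3, 0.1, at each of the 8.

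Inside the gene bodies 277 of 283 tiles were tested. In Reset 259 were lower and 9 were higher, and 8 of those 9 were in TBX3 (98.6% and 0.378% of 937461 gene body tiles of all genes were lower and higher). 13 tiles were erased, 4.69% of those tested against 5.75% of all gene body tiles. Of these 10 lay at genes with unmethylated promoters, 5.13% of 195 tiles, against 5.51% for all genes of that kind. With a Reset limit of 5% in place of 10% the order turned, to 2.89% of the tiles of the 8 genes against 1.70% of all, and the upstream shares became 1.32% and 1.24%. With a Reset limit of 15% it did not turn, at 6.86% of the gene body tiles of the 8 genes against 11.3% of all, nor with a Conventional limit of 50%, at 5.42% against 6.32%. KLF5 held 7 of them, TFCP2L1 3, ESRRB 2 and KLF4 1. The 7 KLF5 tiles were 38.9% of its 18 tiles, and 1.42% of 13366 genes with at least 10 tested tiles had a share as high. The lowest of them, from 13.5 to 14.5 kb into the gene at chr13:73646644-73647643, lies in an intron and went from 84.4%, 85.7% and 76.6% to 4.44%, 2.17% and 2.56%. Its neighbour towards the start went from 91.4%, 96.4% and 90.6% to 0%, 6.06% and 3.45%. Between 6.5 and 8.5 kb, also intronic, a pair of tiles went from 79.3% ± 5.27 to 3.45% ± 1.42 and from 94.0% ± 5.26 to 3.78% ± 3.52 (SD, n = 3). KLF5 was not low throughout: the tile from 9.5 to 10.5 kb kept 39.3% ± 7.83, against 95.6% ± 3.38 in Conventional. The tile just outside the limit was also in KLF5, at 10.7% in Reset.

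The erased tile of KLF4 is the last of its 4 tiles, at chr9:110247550-110248549, and overlaps exonic sequence near the 3′ end of the gene. It went from 97.1%, 94.6% and 92.6% to 0%, 1.27% and 2.94%, with 70, 56 and 54 calls in Conventional and 59, 79 and 34 in Reset. Of 293080 gene body tiles with a like number of CpGs and at least 70% in Conventional, 0.0754% were as low in Reset. The KLF4 tile was singled out by that level among 239 gene body tiles of the 8 genes at 70% or more in Conventional. The share is thus a description. For the other 12 erased gene body tiles this share ran from 0.0795% to 3.92%, both in TFCP2L1. The KLF4 tile before the erased one went from 39.7% to 0%. In TFCP2L1 the tile from 1.5 to 2.5 kb, at chr2:122040278-122041277, went from 87.5%, 80.9% and 92.6% to 1.85%, 4.60% and 2.99%. The other TFCP2L1 tiles lay at 11.5 to 12.5 kb (95.8% ± 3.62 to 7.51% ± 7.70) and at 27.5 to 28.5 kb (80.3% ± 4.16 to 1.47% ± 1.43). All 3 are in introns. The 67 tested tiles of TFCP2L1 had a median of 42.4% in Reset. In ESRRB an exonic tile with 39 CpGs, at chr14:76904981-76905980, went from 96.4%, 94.9% and 96.8% to 2.90%, 13.5% and 9.76%, and an intronic one from 103.5 to 104.5 kb went from 93.6% ± 5.60 to 9.02% ± 4.42. Those were 2 of its 122 tested tiles.

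**Figure D4:**
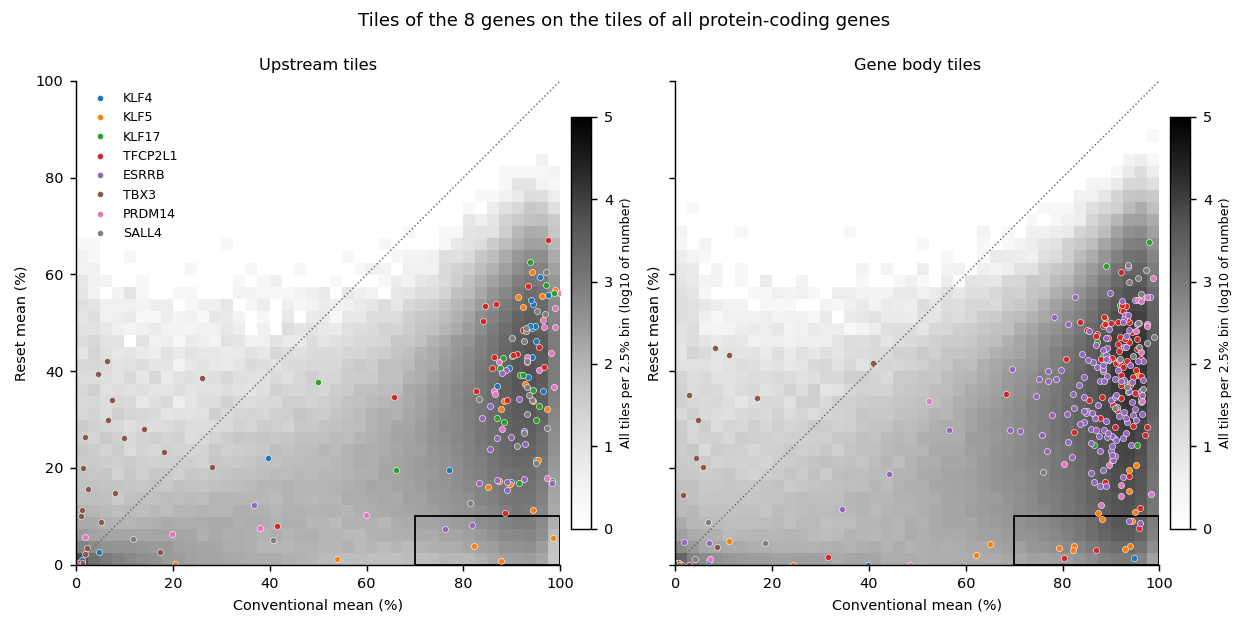
Mean methylation (%) in Reset against Conventional for the upstream tiles (left) and gene body tiles (right) of the 8 genes, in colour, on all tiles of protein-coding genes, in grey as the log10 of the number per bin of 2.5%. The box marks at least 70% in Conventional and at most 10% in Reset, and the dotted line equal levels. KLF5 tiles (orange) lead in the box on the right, and the tiles above the line are mostly those of TBX3 (brown).

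The unmethylated stretch around the start was followed tile by tile, outward from the start until a tile reached 20%. At KLF5 it took in no upstream tile and 1 gene body tile in Conventional, and 6 upstream and 8 gene body tiles in Reset. The first KLF5 upstream tile was only just over the limit in Conventional, with libraries at 15.8%, 26.8% and 18.8%. Of 10681 genes with an unmethylated promoter and at least 10 tested upstream tiles, 4.28% reached as far upstream in Reset, and of 8818 with at least 8 gene body tiles 2.55% reached as far into the gene. This KLF5 stretch, chr13:73627143-73641643, spans 14.5 kb and 309 CpGs. Its ends were set by these values, and as a description it was at 42.5%, 50.2% and 45.7% in Conventional and 3.02%, 2.23% and 3.24% in Reset. PRDM14 went from 2 to 4 upstream tiles and from 2 to 7 gene body tiles, an extent in the gene body that 3.26% of such genes reached. KLF4 stayed at 2 upstream tiles and went from 2 to all 4 of its gene body tiles. ESRRB went from 0 to 2 upstream and from 1 to 2 in the gene body. SALL4 stayed at 1 upstream and went from 5 to 6. A wider stretch in Reset was common, in 56.3% of such genes upstream and in 68.3% of 9905 genes in the gene body. A narrower one was seen in 3.24% and 3.57%, and TBX3 was among them on both sides, from 5 to 2 upstream tiles and from 5 to 3 gene body tiles. The TBX3 gene body tile that ended the run in Reset was only just over the limit, at 15.9%, 18.8% and 26.1%.

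At TBX3 the level rose upstream and over the gene body as wholes, while single tiles moved both ways and the promoter was unmethylated in both groups. In Conventional it lay in a broad stretch of low methylation: its upstream tiles ran from 0.991% to 28.1% with a median of 5.75%, and 0.814% of all genes had an unbroken run under 20% as long upstream. From 1 to 20 kb upstream the level rose from 6.13%, 5.17% and 5.11% to 18.5%, 18.9% and 18.6%. Over the gene body it rose from 7.91%, 8.52% and 7.36% to 17.8%, 21.7% and 25.3%. No Reset library overlapped the Conventional ones in either region. Every Reset library was above in 1.16% of all gene bodies, and for the upstream stretch this share was not counted. The 12 upstream tiles that were higher lay from 1 to 5 kb, from 7 to 8 kb, from 9 to 11 kb and from 14 to 19 kb before the start. 38 of 19658 genes had as many. In gene bodies 41 genes had as many tiles that were higher, whatever their length, and the share of such tiles within each gene was not compared. These counts and the shares of higher tiles given above take in all tiles. Those had Conventional medians of 90.6% upstream and 92.3% in gene bodies, which leaves little room for a rise. Tiles as low in Conventional as those of TBX3 were not compared on their own. All 20 upstream tiles overlap the lncRNA gene TBX3-AS1. At KLF17, where the level fell, the tested tiles from 4 to 20 kb upstream overlap another lncRNA gene.

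The largest rise was in the gene body from 4.5 to 5.5 kb, at chr12:115116480-115117479 over an exon, where 9 CpGs went from 11.6%, 4.55% and 8.33% to 43.9%, 44.4% and 46.2% (adjusted p = 4.58e-09, quasi-binomial test). The upstream tile from 4 to 5 kb, at chr12:115125981-115126980, went from 8.33%, 5.88% and 5.00% to 31.3%, 45.2% and 50%. The one from 16 to 17 kb, at chr12:115137981-115138980, is CpG-rich, with 45 CpGs, and went from 5.31%, 4.67% and 3.73% to 36.8%, 50.9% and 30.3%. In all 3 tiles the lowest Reset library was at least 30.3%, and the highest Conventional library was 11.6%. Between such tiles others stayed low, as from 8 to 9 kb upstream (65 CpGs, 2.13% to 3.47%) and from 13 to 14 kb (52 CpGs, 1.76% to 2.25%). The first 3 gene body tiles, of 12 tested, were lower without overlap, the third of them going from 8.51% ± 3.16 to 3.69% ± 0.552 (SD, n = 3), with an adjusted p of 0.0323 by the quasi-binomial test. The Reset libraries spread more in some gene body tiles. The tile from 11.5 to 12.5 kb, with 55 CpGs, stood at 2.73%, 14.5% and 26.3% in Reset, against 1.03% to 2.26% in Conventional. From 19 to 20 kb upstream TBX3 had the one upstream tile that was lower, from 17.3% ± 18.6 to 2.57% ± 2.5 (SD, n = 3), with groups that overlap.

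The tile of PRDM14 that was higher, from 1 to 2 kb upstream, was at 1.79%, 1.74% and 1.8% in Conventional and 1.30%, 12.7% and 2.99% in Reset, so it rests on a single library and the groups overlap. In ESRRB the first gene body tile was higher too, at 2.06%, 0.862% and 2.58% against 5.49%, 3.00% and 5.71%. That call was lost without Conventional replicate 2 and without Reset replicate 1.

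The erased tiles were read on both strands for 5 motifs, those of ESRRB, of KLF proteins and of TFCP2L1 among the 8 factors, and those of POU5F1 and of TFAP2 proteins. An ESRRB-type motif (TCAAGGTCA) was in none of the 5 upstream and none of the 13 gene body tiles, and 1.40% and 1.48% of all such tiles hold it. An octamer (ATGCAAAT), the motif of POU5F1 and its relatives, was also in none, against 6.17% and 7.65%. A KLF-type motif (GGGNGTGG) was in 1 upstream and 4 gene body tiles, where 36.5% and 26.6% of all tiles hold it. The upstream match was in ESRRB, and the gene body matches were in 3 TFCP2L1 tiles and in the exonic ESRRB tile, so no erased KLF4 or KLF5 tile held one. A TFCP2L1-type motif was in 1 tile of each kind, against 9.24% and 7.36%. A TFAP2-type motif (GCCNNNGGC) was in 1 upstream and 2 gene body tiles, all in ESRRB, where 21.5% and 16.0% of all tiles hold it. Among the erased tiles of all genes, upstream and in gene bodies, 1.45% and 1.31% held the ESRRB-type motif, 9.91% and 11.4% the octamer, 29.5% and 15.4% the KLF-type, 5.48% and 3.62% the TFCP2L1-type and 13% and 7.91% the TFAP2-type motif. The exonic ESRRB stretch printed above accounts for 3 of its matches. Motifs may overlap one another, and a match is a description of the letters only.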

How the data were processed

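Whole-genome bisulfite libraries of H9 cells (3 Conventional, 3 Reset) were examined. The authors sonicated DNA, ligated methylated adapters, treated with bisulfite and amplified with 11 cycles. The submitters' processing notes name Trim Galore, Bowtie2, Bismark 0.9.0 and GRCh37, and removal of duplicate reads is not given in the sources used here. The authors deposited, per cytosine, counts of methylated and unmethylated calls and their percent, without normalization. The deposited percent equalled the share of counts in every line (tolerance 0.001), and 99.8% of positions lay at a CpG when counted from 0. Printed coordinates count from 1.

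Calls on both strands of a CpG were summed over regions of GENCODE release 44 (GRCh37 version), canonical transcripts, chromosomes 1 to 22 and X. A region needed 10 calls or more per library. Each was fitted by a quasi-binomial model with a likelihood-ratio F test, in Python 3.11.15 (scipy 1.17.1). The dispersion was squeezed as in limma, checked against limma 3.58.1, and kept at 1 or more. The p-values of this test thus rest on counting error and on a dispersion drawn toward that of all regions, besides the spread between libraries. Benjamini-Hochberg adjustment ran over all regions of a table, and 0.05 was the threshold. Gene levels were compared with two-sided exact permutation tests. Named were the 8 genes, 12 other factors by promoter, up to 4 erased tiles per gene and region, and the 3 tiles with the largest rise; other tiles named were chosen after their values were seen. The 8 genes, the lists and the tests were chosen with earlier results of these data known. Levels, SDs and calls per library are given in the text for some regions only, and intervals for counting error were not computed. Printed sequences come from the GRCh37 sequence, with the window of a tile that holds most CpGs and no UTR.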

Additional observations from a re-analysis of the deposited data

How the results depend on the processing

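The same 7 gene bodies were lower and TBX3 alone was higher under each alternative run (at least 20 calls, Fisher's exact test on pooled calls, a gene body counted from its start, a replicate block, leaving out each library). Of the alternative values that answer a comparison, 5 counts moved by over 1.5 times and 1 median moved by more than the spread between libraries. The other 155 stayed within these limits, which are wide for counts. For example, 19 erased gene body tiles in place of 13, with a Reset limit of 15%, lie within them. Of the alternative values for single genes, 160 stayed the same by such rules, 7 moved, 7 were weaker, 1 was stronger and 1 reversed. With promoters from 500 bp before to 500 bp after the start, 2 promoters of the 8 were lower in place of 4, and KLF5 reversed to a difference of 0.334 points. Erased upstream tiles numbered 2 with at least 20 calls in every library, 2 with a Reset limit of 5% and 8 with a limit of 15%, and erased gene body tiles numbered 8 with a limit of 5%. The shares of all upstream tiles were then 1.24% and 7.80%, against 1.32% and 5.26% for the 8 genes. For gene body tiles the limit of 5% gave 2.89% at the 8 genes against 1.70% of all tiles, so this limit turned the order of both pairs; the limit of 15% gave 6.86% against 11.3% and did not. With levels averaged over CpGs in place of pooled calls, the median change over the 8 gene bodies fell by 42.8 points in place of 45.7, and the KLF4 gene body fell by 15.8 in place of 24.3. Leaving out 1 library gave 3 to 4 promoters lower, 10 to 13 upstream tiles higher, 4 to 6 erased upstream tiles and 12 to 13 erased gene body tiles.

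Deviations of same-numbered libraries correlated between -0.022 and 0.011 over the 4 tables, so no clear pairing by replicate number was seen. Among promoters the best Reset partner of each Conventional library was the same-numbered one, and in the other tables it never was. With few calls per region these deviations hold much counting error, so they cannot exclude a pairing. With the number as a block, 3 promoters were lower (SALL4 not, adjusted p = 0.0591, quasi-binomial model) and 124 upstream tiles were lower and 11 higher.

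At these depths tiles rest on few calls, and a tile just past a limit on one side cannot be told from one just past it on the other.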
